A study of Mus musculus with 282 samples.

Results

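Gabra2, Gabra3, Gabra5, Gabrb1 and Gabrg1 are 5 genes of the GABA-A receptor family, whose RNA was measured in the hypothalamus of the mouse. They were taken as the gene and transcript rows of the expression table whose gene name in the transcript assembly was 1 of the 5 symbols, and they made up 5 of 12874 gene names, 4 of 14079 gene rows and 18 of 51024 transcript rows. The study sequenced RNA from the hypothalamus of 282 male mice that were fed a high fat, high sugar diet. Of these, 281 were placed by their labels in 99 strains of the Hybrid Mouse Diversity Panel. One mouse, OB-627, could not be placed in a unique strain from the labels and entered no comparison. The age of the mice is not given in the sources used here. No group on another diet or of the other sex was analysed. Every value below thus belongs to males on the high fat, high sugar diet.

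The strains fell into 6 sets, which were formed by strain name. The classical inbred set held 25 strains and 71 mice and included C57BL/6J, DBA/2J, A/J, C3H/HeJ and BALB/cJ. The recombinant inbred sets descend from crosses of C57BL/6 mice with 1 other parent: DBA/2J for BXD, A/J for AXB and BXA, C3H/HeJ for BXH and BALB/c for CXB. Each such strain was inbred from the cross until it bred true, so that at most loci it carries the allele of 1 parent or the other. The BXD strains came in 2 sets by the suffix of their name, 18 TyJ strains (51 mice, numbered from 5 to 40), which were bred earlier, and 25 RwwJ strains (75 mice, numbered from 43 to 87), which were bred later. The AXB/BXA set held 18 strains (47 mice), BXH 6 strains (16 mice) and CXB 7 strains (21 mice). There were 85 strains with 3 mice, 12 with 2 mice and 2 with 1 mouse.

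GABA-A receptors are the ligand-gated chloride channels through which GABA, the main inhibitory transmitter of the brain, exerts fast inhibition. Each receptor is a ring of subunits, usually α and β subunits with a γ or δ subunit, and the subunits present set where the channel sits on the neuron and which drugs act on it. Benzodiazepines bind where an α subunit of the right kind meets a γ subunit. The hypothalamus is rich in GABA neurons, and its feeding, reproductive and stress circuits are under GABA control. Gabra2, Gabra3 and Gabra5 encode the α2, α3 and α5 subunits, Gabrb1 the β1 subunit and Gabrg1 the γ1 subunit. Gabrg1, Gabra2, Gabra4 and Gabrb1 lie side by side on chromosome 5, Gabra5 lies on chromosome 7 and Gabra3 on the X chromosome.

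In the mm10 build the annotated Gabra2 gene (GENCODE M21) spans chr5:70957597-71095849 on the minus strand, and Gabrg1 lies next to it on the same strand at chr5:70751047-70842617. The assembled transcripts of both genes were placed in 1 gene row by the authors, although the transcripts are 36730 bp apart, since that row covers chr5 from base 70748549 to base 71096373. Gabra2 and Gabrg1 are therefore given below as the sum of their own 3 deposited transcripts each, and Gabra3, Gabra5 and Gabrb1 by their gene rows. The 6 transcripts held 95.7% ± 4.26 (SD, n = 281 mice) of the joint row. Levels are in FPKM, read fragments scaled to the length of the transcript and to the number of mapped fragments, so that they can be compared between genes per length.

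The bases just before the RefSeq start site (GRCm38.p6) are shown for Gabrg1 and Gabrb1, the members that lie on either side of Gabra2 on chromosome 5 and whose levels are set beside it below. In the 2 lines the last 30 bases before the start are given 5′ to 3′ on the strand of the gene, with CG dinucleotides in capitals. In both genes this start was also the first base of an assembled transcript, while 3 other Gabrb1 transcripts and 1 other Gabrg1 transcript began further upstream. Those of Gabrb1 began at bases 71699763, 71699802 and 71699904. All of the Gabrb1 bases shown thus lie within the span of assembled transcripts.
Gabrg1, chr5:70842618-70842647, minus strand: agccaaggaaagggaagaggtagtggcccc
Gabrb1, chr5:71699902-71699931, plus strand: agtgagtaccctctgCGcatgCGcaggtcc
Over the 250 bases before the start, Gabrb1 held 6 CG dinucleotides at a GC content of 50.8% and Gabrg1 held 1 at 35.6%, where the median of 32851 such windows was 6 at 52.4%. Read on both strands, the letters GGGCGG, found in 32.7% of all windows, and TATAAA, found in 12.4%, were in neither, which says only that these letters are not in these windows.

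Gabra2 had a low level in C57BL/6J and in 10 BXD strains and a higher level in every other strain. With all mice and over all 99 strains it had the largest share of its variance between strains of the members, 0.87 against 0.75 for Gabra3, but without OB-547, a library described below, Gabra3 had 0.90 against 0.87, and among the classical strains 0.98 against 0.82. In the 3 C57BL/6J mice it stood at 11.9, 13.7 and 11.1 FPKM. In the 24 other classical inbred strains the strain means ran from 26.5 FPKM in DBA/2J over a median of 31.6 to 35.3 in KK/HlJ, and their single mice ran from 24.1 to 39.97 FPKM. No mouse of another classical strain reached down to the C57BL/6J mice. In a bulk sample a lower level may be fewer cells that use the gene or less RNA in each cell, and these cannot be told apart.

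In the recombinant inbred sets a low level was seen in BXD strains alone. Ordered by strain mean over all 99 strains, Gabra2 rose in small steps, with a median step of 0.0815 FPKM, apart from 1 wide step of 9.66 FPKM. Below it stood 11 strains at 11.5 to 14.2 FPKM, and above it 88 strains at 23.9 FPKM in CXB-3/ByJ to 35.7 in BXHA1. The 33 mice of the lower 11 strains ran from 9.22 to 15.8 FPKM and the 248 mice of the other strains from 14.3 to 42.99 FPKM. These ranges touched through 1 mouse alone, OB-422 of CXB-3/ByJ at 14.3 FPKM, and without it the upper range began at 19.4 FPKM with mouse OB-547 of BXD-12/TyJ and without both at 22.8 FPKM.

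**Figure D1:**
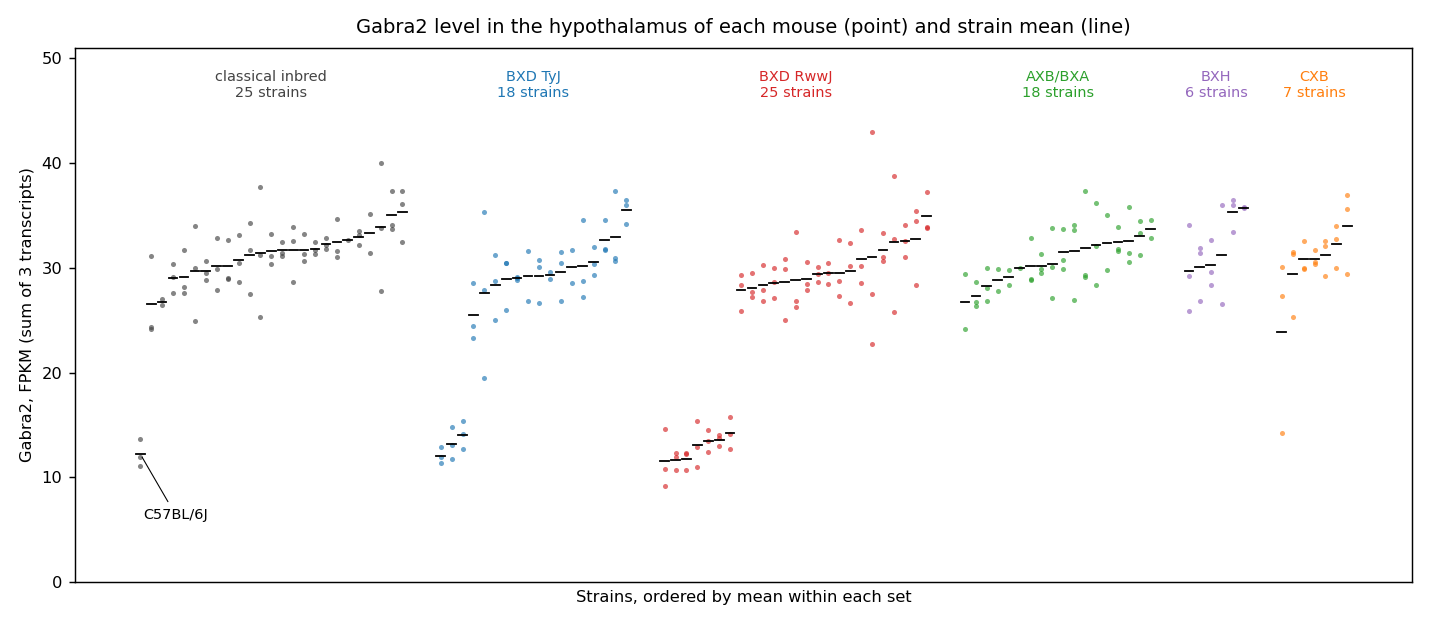
Gabra2 level in FPKM (vertical axis, linear, from 0) in each of 281 mice, shown as points, for 99 strains ordered by their mean within each of 6 strain sets, with a black line at each strain mean. C57BL/6J at 12.2 FPKM, 3 BXD TyJ strains and 7 BXD RwwJ strains lie at 11.5 to 14.2 FPKM, and the strain means of all others lie at 23.9 FPKM or more.

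Both libraries at the edge stood apart from the rest in ways that touch the receptor genes. The FPKM values of all gene rows summed to 792801 in OB-547 and to 463433 in OB-422, the highest sums of the series, where the median mouse had 337467. Gabra3 was at 2.98 FPKM in OB-547 and 18.2 in OB-422, Gabrb1 at 10.3 and 6.63 FPKM, and Gabra4, which encodes the α4 subunit, at 0.216 and 2.01 FPKM, where the median mouse had 31.0 FPKM of Gabra4. The 2 libraries are kept in the tests below unless a value is said to be without them.

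The lower group held strains from both BXD sets, whose levels were close to each other and to C57BL/6J. BXD61 gave 9.22, 10.8 and 14.6 FPKM, BXD60 gave 10.7, 11.98 and 12.3 FPKM, and BXD74 gave 10.7, 12.2 and 12.3 FPKM. BXD64 gave 10.96, 12.95 and 15.4 FPKM, BXD66 gave 12.4, 13.5 and 14.5 FPKM, and BXD86 gave 12.999, 13.8 and 14.1 FPKM. BXD44, the last of the 7 RwwJ strains below the step, gave 12.8, 14.2 and 15.8 FPKM. Their means ran from 11.5 to 14.2 FPKM, and the SD of the 3 mice ran from 0.548 FPKM in BXD86 to 2.76 FPKM in BXD61. Pooled over all strains, most of which had a higher level, the SD within a strain was 3.06 FPKM. Differences among these 7 strains alone were not tested. Of the TyJ strains, BXD-36/TyJ gave 11.3, 11.99 and 12.9 FPKM, BXD-40/TyJ gave 11.7, 13.1 and 14.8 FPKM, and BXD-38/TyJ gave 12.7, 14.2 and 15.4 FPKM.

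The low level was spread unevenly over the BXD strain numbers. None of the 13 TyJ strains numbered up to 32 was below the step, and their strain means ran from 25.5 FPKM in BXD-32/TyJ over a median of 29.6 to 35.5 FPKM in BXD-19/TyJ. Of the 5 TyJ strains numbered above 32, 3 were below it, and the other two, BXD-34/TyJ and BXD-39/TyJ, were at 29.3 and 28.9 FPKM. Of the 25 RwwJ strains 7 were below it, and the other 18 had strain means from 27.9 FPKM in BXD50 to 35.0 FPKM in BXD87. Over all BXD strains numbered above 32 the count was 10 of 30. These counts describe the order of the strains and were not tested, since the step was found in the same values.

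**Figure D2:**
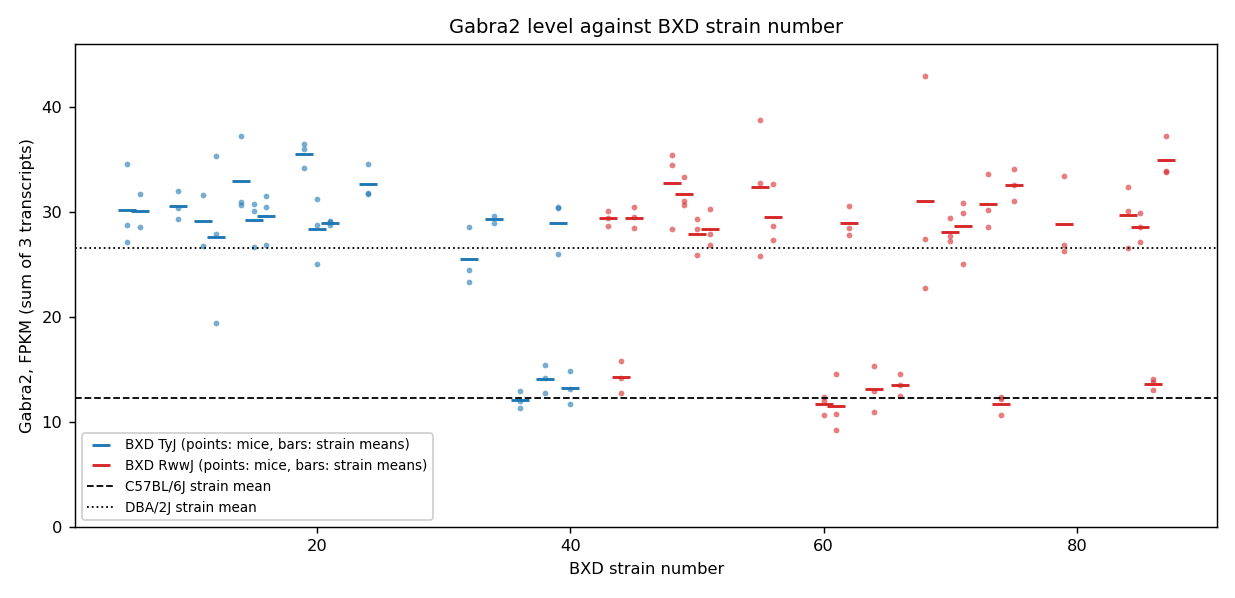
Gabra2 level in FPKM (vertical axis, linear, from 0) against the BXD strain number (horizontal axis) for 18 TyJ strains in blue and 25 RwwJ strains in red, with mice as points and strain means as bars, and with the strain means of C57BL/6J (12.2 FPKM, dashed line) and DBA/2J (26.5 FPKM, dotted line). All 13 strains numbered up to 32 lie near or above DBA/2J, and 10 of the 30 later numbers lie near C57BL/6J.

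The comparison of the earlier with the later BXD strains asked whether the 2 sets differed in level as a whole, with 1 value per strain. For Gabra2 the mean of the strain means was 27.1 FPKM in TyJ and 25.3 in RwwJ, a log2 difference of 0.13 (SE 0.15, adjusted p = 0.830, limma with Benjamini-Hochberg adjustment). It was 0.32 (adjusted p = 0.658) with TyJ strains numbered up to 32 alone and 0.38 (adjusted p = 0.652) for all strains numbered up to 32 against all later numbers, a split added after seeing the data, and 0.06 (adjusted p = 0.842) in the joint row. The sets overlapped, with strain means from 12.1 to 35.5 FPKM in TyJ and from 11.5 to 35.0 FPKM in RwwJ. The other members also gave no call, with log2 differences of -0.04 (SE 0.05, adjusted p = 0.863) for Gabrg1, -0.08 (SE 0.06, adjusted p = 0.701) for Gabra3, 0.03 (SE 0.04, adjusted p = 0.864) for Gabra5 and -0.02 (SE 0.05, adjusted p = 0.945) for Gabrb1. In this comparison 0% of gene rows, of gene-name sums and of transcripts were called by limma, while 1135 gene rows, 1000 gene-name sums and 3128 transcripts had an unadjusted p under 0.05. With single mice in place of strain means and the strain as a random block, limma called 77 gene rows and 37 gene-name sums, none of the members among them.

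Within the sets Gabra2 differed strongly between strains wherever a low strain was present. The share of the variance of log2(FPKM + 1) that lay between strains, given below as the strain share, was 0.92 among the RwwJ strains (adjusted p = 2.50e-56, limma F test) and 0.89 among the TyJ strains (adjusted p = 3.06e-36). It was 0.82 among the classical strains (adjusted p = 2.33e-19), where only C57BL/6J was low. Among the AXB/BXA strains it was 0.15 (adjusted p = 0.829) and among the BXH strains 0.20 (adjusted p = 0.375), and neither passed the test. The CXB strains gave 0.19 (adjusted p = 0.0127), a call that rested on mouse OB-422, since without it the strain share was 0.084 (adjusted p = 0.896). The shares of all gene-name sums called in these tests were 34.4% (RwwJ), 60.7% (TyJ), 32.9% (classical), 14.5% (AXB/BXA), 16.5% (BXH) and 12.9% (CXB).

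Over all 99 strains the strain share of Gabra2 was 0.87 (adjusted p = 2.58e-59), in a test that called 67.4% of all gene-name sums. A call by itself was thus common, and the members are described by the size of the strain share and not by the call. For the joint row of Gabra2 and Gabrg1 it was 0.61 (adjusted p = 4.26e-22). For the joint row the mice of C57BL/6J stood at 35.4, 35.0 and 32.5 FPKM against a median strain mean of 51.8 FPKM in the other classical strains.

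C57BL/6J was then compared with the other parent strains of the recombinant inbred sets and with C57BLKS/J and C57L/J, which are inbred strains related to it. DBA/2J had 31.1, 24.1 and 24.4 FPKM of Gabra2, and A/J had 27.6, 30.4 and 29.1 FPKM. C3H/HeJ had 34.3, 31.7 and 27.5 FPKM, and BALB/cJ had 33.8, 39.97 and 27.8 FPKM. Among the relatives C57BLKS/J had 31.7, 27.6 and 28.1 FPKM, and C57L/J had 30.5, 28.7 and 33.1 FPKM. The 3 mice of C57BL/6J, at 11.1 to 13.7 FPKM, lay below every mouse of the 6 strains.

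On the log2(FPKM + 1) scale Gabra2 was lower in C57BL/6J by 1.05 than in DBA/2J (difference -1.05, SE 0.13, adjusted p = 7.36e-12, limma). The difference was -1.18 against A/J (adjusted p = 1.26e-14), -1.28 against C3H/HeJ (adjusted p = 9.02e-17) and -1.39 against BALB/cJ (adjusted p = 7.81e-19), each with an SE of 0.13. Against the related strains it was -1.19 for C57BLKS/J (adjusted p = 1.63e-14) and -1.26 for C57L/J (adjusted p = 8.59e-16). Of all gene-name sums these tests called 3.7% (DBA/2J), 4.51% (A/J), 4.45% (C3H/HeJ), 3.98% (BALB/cJ), 1.24% (C57BLKS/J) and 1.55% (C57L/J). The 6 comparisons share the same 3 C57BL/6J mice and are not independent of each other. In the joint row, to which Gabrg1 adds, the difference from DBA/2J was -0.33 and was not called (adjusted p = 0.124).

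**Figure D3:**
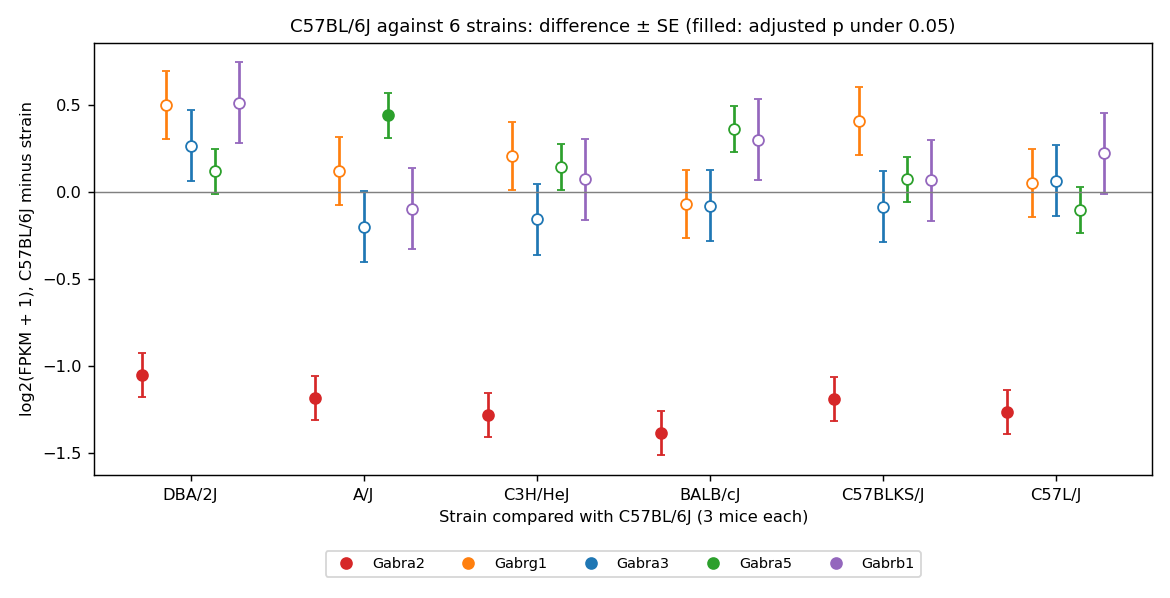
Difference in log2(FPKM + 1) between C57BL/6J and each of 6 strains (vertical axis, C57BL/6J minus the strain) with its SE as error bars, 3 mice a strain, for the 5 members by colour, with filled points where the adjusted p was under 0.05. Gabra2 lies at -1.05 to -1.39 and is filled in all 6, and of the other points only Gabra5 against A/J at 0.44 is filled.

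Gabra2 was assembled as 3 transcripts, and C57BL/6J was low in each, although the difference was called in only the 2 that carry nearly all of the level. TCONS_00275050 (chr5:70961057-71095849, 10 exons) matches the annotated transcript and averaged 14.3 FPKM over 281 mice. TCONS_00275044 (11 exons) averaged 13.5 FPKM and differs from the annotation in at least 1 splice junction, and it runs from base 70884514 to base 71096373 on chromosome 5. TCONS_00275046, whose first exon starts at base 71095061, averaged 0.770 FPKM.

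The C57BL/6J mice had 5.14, 6.80 and 6.30 FPKM of TCONS_00275044 and 6.76, 6.87 and 4.83 FPKM of TCONS_00275050. The DBA/2J mice had 16.4, 14.6 and 12.2 FPKM of the former and 14.1, 9.57 and 10.9 FPKM of the latter. In both transcripts the groups of 3 mice did not overlap, and the share of all transcripts that separate in this way is not given here. Against the 6 strains the log2 difference of TCONS_00275044 ran from -0.90 (A/J, adjusted p = 1.01e-06) to -1.27 (BALB/cJ, adjusted p = 8.86e-13), and all 6 were called. For TCONS_00275050 it ran from -0.80 (DBA/2J, adjusted p = 0.298) to -1.30 (BALB/cJ, adjusted p = 0.0188), and 3 of the 6 were called, with an SE of 0.34 where that of TCONS_00275044 was 0.14. TCONS_00275046 had a mean of 0.00150 FPKM in C57BL/6J and means of 0.623 (DBA/2J) to 1.11 FPKM (BALB/cJ) in the 6 strains, with log2 differences from -0.62 (adjusted p = 0.448) to -1.06 (adjusted p = 0.0651) for the same strains and no call. The share of all transcripts called in these comparisons is not given here, so the differences are described by their size. TCONS_00275050 was listed at 0 in 2 mice, OB-422 and OB-547, in which TCONS_00275044 was at 14.3 and 19.4 FPKM.

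**Figure D4:**
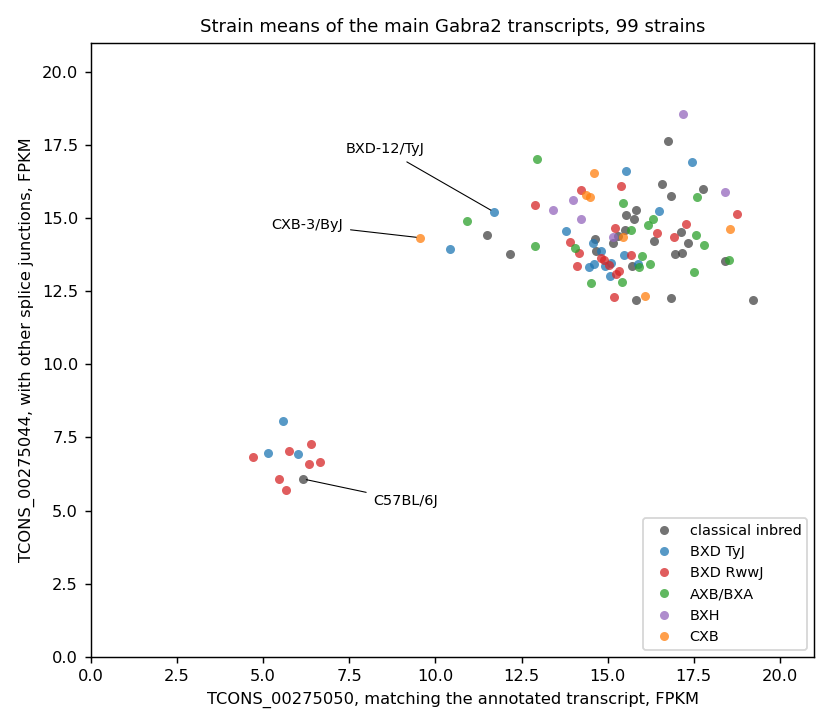
Strain means in FPKM of the transcript that matches the annotation (TCONS_00275050, horizontal axis) and of the transcript with another splice junction (TCONS_00275044, vertical axis) for 99 strains, coloured by strain set, on linear axes from 0. The 11 strains with low Gabra2 form 1 cloud at 4.72 to 6.65 FPKM and 5.72 to 8.05 FPKM, low in both transcripts.

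Of the 18 transcripts of the 5 genes 9 differed between the 99 strains, in a test that called 46.8% of all transcripts. The strain share was 0.78 for TCONS_00275044 (adjusted p = 7.95e-40), 0.48 for TCONS_00275050 (adjusted p = 4.26e-13) and 0.22 for TCONS_00275046 (adjusted p = 1.01e-03). Transcript values are estimates that divide shared reads among isoforms, so a split between isoforms is less certain than their sum.

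Gabrg1, the γ1 gene beside Gabra2, did not show the step. In C57BL/6J its 3 mice stood at 21.1, 19.1 and 20.4 FPKM, above the median strain mean of 18.7 FPKM in the other classical strains. Over all 99 strains its strain means ran from 13.6 FPKM in BXD51 to 24.8 FPKM in RIIIS/J without a gap wider than 0.887 FPKM. Its strain share was 0.11 (adjusted p = 0.0536), and it passed the threshold without OB-547 (adjusted p = 0.0188). Against the 6 strains the differences ran from -0.07 (BALB/cJ, adjusted p = 0.938) to 0.50 (DBA/2J, SE 0.19, adjusted p = 0.158), and none was called.

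Gabra3 was near 0 in 1 strain, NZB/BlNJ, and had the highest strain mean of the members in all others. In BXD-12/TyJ it was close to Gabra2, at 27.63 against 27.57 FPKM, and its gene row is set there beside a sum of transcripts. The NZB/BlNJ mice had 1.70, 0.882 and 1.21 FPKM in the gene row. The next strain means were 27.6 FPKM in BXD-12/TyJ and 30.8 in CXB-3/ByJ, each with 1 of the libraries that stood apart, and the highest was 47.8 FPKM in BXHB2. NZW/LacJ, another New Zealand strain, had 40.1, 40.8 and 44.6 FPKM. In NZB/BlNJ the main transcript, TCONS_00380268 (chrX:72432681-72656186, 10 exons, matching the annotation), had a mean of 3.65e-05 FPKM, where C57BL/6J had a mean of 28.9 FPKM ± 2.42 (SD, n = 3).

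The 7 Gabra3 transcripts together reached 0.111 FPKM as the NZB/BlNJ mean, against 1.26 FPKM in the gene row, which also counts assembled transcripts that were filtered from the table. The other members were not low in that strain, with Gabra2 at 28.9, 32.7 and 29.1 FPKM and Gabra5 at 16.3, 15.9 and 14.1 FPKM. Its summed markers of neurons (6 genes, 1141 to 1230 FPKM in the 3 mice) lay within the range of all strain means, 996.7 to 1383 FPKM.

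The strain share of Gabra3 was 0.75 over all strains (adjusted p = 5.42e-38) and 0.98 among the classical strains (adjusted p = 2.14e-54). Without NZB/BlNJ it was 0.10 over all strains (adjusted p = 0.066) and 0.53 among the classical strains (adjusted p = 0.904), so both calls were lost. That fit kept OB-547, and a fit without both was not run. The F test uses the spread of all strains, and the strain share that of the set alone, so that a high share can go with a high p. Among the TyJ strains the call (adjusted p = 1.05e-04) came with a strain share of -0.07 and was lost without OB-547 (adjusted p = 0.230). In the other sets the test was not passed with all mice, although the CXB strains passed it without OB-547 (adjusted p = 0.0017) and the BXH strains without both OB-422 and OB-547 (adjusted p = 0.0353), and C57BL/6J at 42.3, 36.9 and 40.8 FPKM was not called against any of the 6 strains, with log2 differences from -0.20 (A/J, SE 0.20, adjusted p = 0.663) to 0.27 (DBA/2J, SE 0.20, adjusted p = 0.545).

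Gabra5, whose α5 subunit sits largely outside synapses and carries tonic inhibition, varied over a narrow range. Its strain means ran from 13.7 FPKM in SM/J, with mice at 12.2, 14.4 and 14.4 FPKM, to 22.1 FPKM in C57L/J, with mice at 21.5, 19.5 and 25.2 FPKM, without a step wider than 0.519 FPKM. The spread of mice within a strain was 2.13 FPKM as a pooled SD, so that most neighbours in this order did not differ beyond it. The strain share was 0.32 (adjusted p = 8.34e-07) over all strains, in a test that called 75.4% of all gene rows.

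By set, Gabra5 passed the test among the classical strains (strain share 0.49, adjusted p = 1.95e-05), the TyJ strains (0.31, adjusted p = 1.58e-03) and the RwwJ strains (0.17, adjusted p = 0.0443), the last of which was lost with the first mouse (adjusted p = 0.090) or the third mouse (adjusted p = 0.765) of each strain left out. It did not pass among the AXB/BXA strains (0.35, adjusted p = 0.144), the BXH strains (-0.20, adjusted p = 0.792) or the CXB strains (-0.03, adjusted p = 0.628). These tests called 47.8% (classical), 65% (TyJ), 35.4% (RwwJ), 22.5% (AXB/BXA), 18.6% (BXH) and 18% (CXB) of all gene rows. C57BL/6J had 23.1, 17.9 and 20.4 FPKM and A/J had 14.1, 14.02 and 16.2 FPKM. The log2 difference of 0.44 (SE 0.13, adjusted p = 0.0163, limma) was called. It was not called without the C57BL/6J mouse at 23.1 FPKM (difference 0.35, adjusted p = 0.167), and when 1 mouse of every strain was left out it ran from 0.32 to 0.53 and the adjusted p up to 0.354. Against the other 5 strains it ran from -0.10 (C57L/J) to 0.36 (BALB/cJ, adjusted p = 0.0767) without a call, although the difference from BALB/cJ was called without the C57BL/6J mouse at 17.9 FPKM (0.45, adjusted p = 0.044) and with the second mouse of every strain left out (0.58, adjusted p = 0.00459).

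Gabrb1, which encodes the β1 subunit and stands on the far side of Gabra4 from Gabra2, had the lowest strain share of the 3 genes with a row of their own. Its strain means ran from 13.7 FPKM in PL/J to 25.0 FPKM in AXB-6/PgnJ, and mice of 1 strain differed by 3.69 FPKM as a pooled SD. The strain share was 0.09 (adjusted p = 0.0752), a value that passed the threshold without OB-547 (adjusted p = 0.034). It passed in none of the 6 sets, although with the first mouse of each strain left out it passed among the classical (adjusted p = 0.0176), TyJ (adjusted p = 0.0208), RwwJ (adjusted p = 0.0334), AXB/BXA (adjusted p = 0.029) and CXB strains (adjusted p = 0.00529). C57BL/6J had 19.3, 20.8 and 19.5 FPKM, and DBA/2J had 17.1, 12.7 and 11.6 FPKM. The log2 difference of 0.51 gave no call (SE 0.23, adjusted p = 0.196, limma). It was -0.22 when Gabrb1 was taken as the sum of its transcripts. The other 5 differences ran from -0.10 (A/J) to 0.30 (BALB/cJ), and the gene rows called in the 6 comparisons were 6.88% (DBA/2J), 8.01% (A/J), 7.59% (C3H/HeJ), 6.79% (BALB/cJ), 2.39% (C57BLKS/J) and 2.63% (C57L/J).

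**Figure D5:**
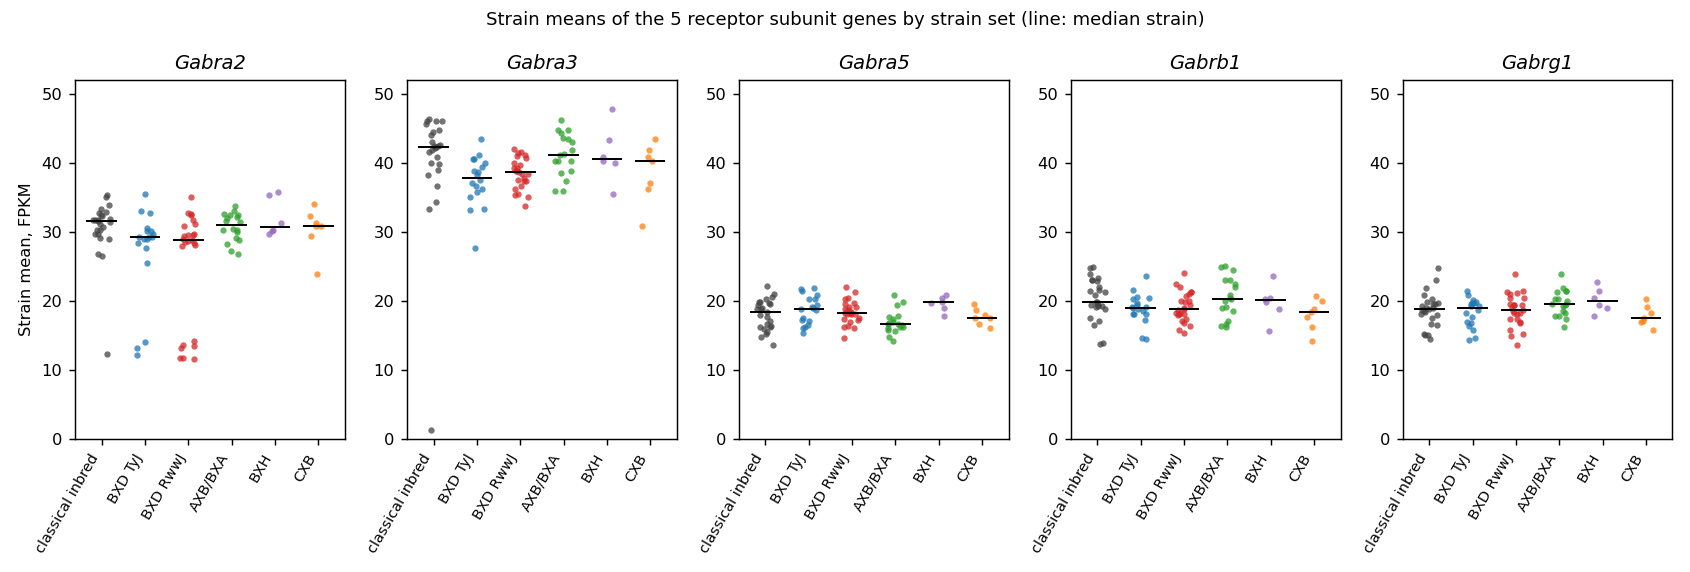
Strain means in FPKM (vertical axis, linear, from 0) of the 5 genes in 5 panels, as points by strain set, with a line at the median strain of each set. Gabra2 has 11 strains near 12 FPKM, Gabra3 has NZB/BlNJ at 1.26 FPKM, and Gabra5, Gabrb1 and Gabrg1 form 1 band each between 13.6 and 25.0 FPKM.

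By level over all 281 mice the members stood in the order Gabra3 (39.4 FPKM ± 6.41, SD), Gabra2 (28.6 ± 6.63), Gabrb1 (19.5 ± 3.93), Gabrg1 (18.8 ± 3.32) and Gabra5 (18.1 ± 2.57). The last 3 did not differ beyond the spread between mice. By the same values the order in C57BL/6J was another, with Gabra2 below Gabra5, Gabrb1 and Gabrg1 in each of its 3 mice. Both orders set sums of deposited transcripts (Gabra2 and Gabrg1) beside gene rows, which also count transcripts filtered from the table. As a sum of its deposited transcripts Gabrb1 averaged 13.3 FPKM over all mice, the lowest of the members by such sums. In C57BL/6J that sum was 8.92 FPKM, below Gabra2 at 12.2 FPKM.

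Gabra2 was the 1 subunit gene called lower in C57BL/6J than in any of the 6 strains. Of 19 subunit genes listed, 14 were in the table, and Gabra6, Gabrp, Gabrr1, Gabrr2 and Gabrr3 were not. By gene-name sums 9 of the 14 differed between the 99 strains, where 67.4% of all gene-name sums did, and the list's median strain share was 0.21 where that of all genes was 0.18. In the 6 comparisons of C57BL/6J, Gabra2 was lower in each, Gabrg3 (the γ3 subunit) was higher than in DBA/2J and A/J, Gabra5 was higher than in A/J, and no other subunit was called. These comparisons called 1.24% (C57BLKS/J) to 4.51% (A/J) of all gene-name sums.

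Gabrg3, on chromosome 7 near Gabra5, was low in SJL/J at 2.69 and 2.09 FPKM and in KK/HlJ at 2.59, 2.35 and 2.85 FPKM. The other strain means ran from 5.16 FPKM in CXB-3/ByJ to 9.10 FPKM. Of 17 genes of the GABA synapse (synthesis, transport, scaffold, GABA-B receptors and chloride transporters), all 17 were in the table and 13 differed between strains, against the same 67.4% of all gene-name sums. In the comparisons of C57BL/6J, 2 of them, Nlgn2 and Slc12a5, were lower than in A/J, and Shisa7 was higher than in C3H/HeJ. Of all gene-name sums these tests called 4.51% (A/J) and 4.45% (C3H/HeJ). Between the TyJ and the RwwJ strains limma called 0 genes of either list, with 0 of the subunits and 1 of the synapse genes, Gabbr1, at an unadjusted p under 0.05.

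The comparisons of C57BL/6J called few genes, and none of the other genes around Gabra2. Within 2 Mb of it the assembly held 13 other genes, of which 7 differed between the 99 strains, where 67.4% of all gene-name sums did, and 5 within the RwwJ strains, where 34.4% did. Of the 13 genes 0 were called in any comparison of C57BL/6J with the 6 strains (limma), with 4 at an unadjusted p under 0.05 in at least 1 of them. These tests called 1.24% (C57BLKS/J) to 4.51% (A/J) of all gene-name sums, so the lack of calls is near that share. Gabra4 (α4), which lies between Gabra2 and Gabrb1, had a mean of 30.2 FPKM, 26.5 FPKM in C57BL/6J and a strain share of 0.22 (adjusted p = 4.58e-04). Its log2 difference between C57BL/6J and DBA/2J was -0.36 (SE 0.40, adjusted p = 0.761). Over the 25 RwwJ strains the genes most like Gabra2, by Pearson's r of strain means, were Ociad1 (r = -0.81), Gm24776 (-0.80), Ccdc181 (0.80), Bend4 (0.78) and Pcif1 (0.75). Ociad1, Gm24776 and Bend4 lie on chromosome 5 as Gabra2 does, and r is negative for 2 of these 3. Gm24776 is also among the 13 genes within 2 Mb, where r with Gabra2 was further -0.71 for Slain2, -0.55 for Fryl and -0.55 for Gnpda2 and ran up to 0.40 for Gabrb1. Gm24776 lies inside Slain2 on the other strand, so that reads of these genes cannot be told apart.

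Over all 99 strains the likeness was weaker for Gabra2 than for the other members, with Nnt, a mitochondrial transhydrogenase (r = 0.43), Ociad1 (-0.40) and Wdfy1 (0.39) at the top. For Gabrg1 the 3 genes most like it were Prkacb (0.66), Ogfod1 (0.65) and Rasgrf2 (0.63), and for Gabra3 they were Nln (0.75), Akap8 (0.70) and 6820431F20Rik (-0.69). For Gabra5 they were Slc25a37 (-0.54), Vstm2a (0.54) and Elmod1 (0.53), and for Gabrb1 Phc3 (0.77), Map1b (0.75) and Lnpep (0.75). The strain means share libraries across genes, single libraries weigh on them, and the values are given as a description.

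The dissections differed in the tissue that came with the hypothalamus, and the members followed this to a different degree. Summed over 5 thalamus markers, the strain means ran from 47.4 to 286.2 FPKM, and over 6 of 7 anterior pituitary markers from 1.32 to 7797 FPKM, while Pou1f1 was not in the table. Over the 99 strains Gabra2 had r = -0.11 with the thalamus sum and r = 0.14 with the pituitary sum, and its r with each of the 10 marker lists lay between -0.12 and 0.20. Gabra5 had r = -0.43 with the thalamus sum, Gabrg1 had -0.42 with the cortex and hippocampus sum, and Gabrd, the δ subunit gene, which is no member, had 0.95 with the thalamus sum. C57BL/6J lay inside the range of the other strains in thalamus markers, at 173 FPKM, and its neuron markers summed to 1159 FPKM, where the median strain had 1159 FPKM. Over 5 of 6 choroid plexus markers its sum was 355 FPKM, with single mice from 13.9 to 1026 FPKM, where the median strain had 42.1 FPKM. Its anterior pituitary sum was 3.13 FPKM, where the median strain had 50.2 FPKM. The hypothalamus markers Agrp, Pomc, Hcrt, Pmch, Avp, Oxt and Nkx2-1 summed to 704 FPKM or more in every strain, and Sim1 was not in the table. The part of admixed tissue in the differences of Gabra5 and Gabrg1 between strains was not tested.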

How the data were processed

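RNA of the hypothalamus was extracted with a Qiagen miRNAeasy kit and sequenced from unstranded TruSeq v3 libraries. The authors aligned reads with STAR 2.3.1 to mm10, built a transcript assembly for each strain (Cufflinks 2.2.0), joined these to GENCODE M2 and deposited FPKM values from Cuffnorm 2.2.1 for 282 mice. Deposited rows exceed an FPKM of 1 in at least 50 mice and of 0 in at least 100. The table holds no counts, so the depth behind each value is unknown. Without strand, reads of overlapping antisense genes cannot be separated. The deposited row that joins Gabra2 and Gabrg1 was replaced by the sum of each gene's own transcripts, a choice made after seeing the files.

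Strains were compared on log2(FPKM + 1) with limma 3.58.1 (R 4.3.3): an F test over 99 strains and within each set, contrasts of C57BL/6J, and TyJ against RwwJ on strain means. Adjustment followed Benjamini and Hochberg over all rows of a table (threshold 0.05). A fold change on this scale understates that of low genes. The strain share is the intraclass correlation. Tested on simulated data (14079 genes, 200 changed), the fits recovered 100% for the strain F test at a strain share of 0.5, 95% for C57BL/6J against DBA/2J at a log2 difference of 1, and 86.5% for TyJ against RwwJ at a difference of 1.5 SD, and smaller differences were not simulated. Named genes were the 5 members, their transcripts averaging 0.5 FPKM or more, listed subunit and synapse genes, genes within 2 Mb of Gabra2, and those most like each member. The members and lists were chosen with earlier results of these data known. Mice of a strain are separate animals. Mouse OB-627, whose labels gave no unique strain, was left out. A promoter sequence and the values of some other subunit genes are not reported here.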

Additional observations from a re-analysis of the deposited data

How the results depend on the processing

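The alternatives were a pseudocount of 0.1, a filter that kept rows averaging 1 FPKM or more, quantile normalization, leaving out 1 mouse of each strain or each C57BL/6J mouse, leaving out OB-547, and, chosen after seeing the data, leaving out OB-422, NZB/BlNJ or using the joint row or transcript sums. Where a mouse of each or every strain was left out, here and above, mice were taken by their order within the strain. Strains with 1 mouse, or with no mouse at that place, kept all their mice. For Gabra2, 164 of 169 repeated values kept their direction and side of the threshold. With no call throughout, its strain share ran from -0.23 to 0.51 (AXB/BXA) and 0.15 to 0.44 (BXH) when 1 mouse of each strain was left out, and was -0.0016 for BXH in the joint row. The exceptions were the joint row against DBA/2J (-0.33) and the CXB strains, whose strain share was 0.084 without OB-422 (also without OB-422 and OB-547), 0.087 in the joint row, and 0.024 to 0.23 when 1 mouse of each strain was left out. Against the 6 strains its log2 difference ran from -1.46 to -0.92 when mice were left out.

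Differences that were not called changed sign as follows. TyJ minus RwwJ became -0.0065 for TCONS_00275050 with a pseudocount of 0.1. For Gabra5 it became -0.0191 with TyJ strains numbered up to 32 only and -0.0440 for strains numbered up to 32 against all later numbers. For Gabrb1 it became 0.0045 without OB-547 and 0.0601 for the sum of transcripts. With the sum of transcripts, Gabrb1 in C57BL/6J became -0.22 against DBA/2J, -0.61 against C3H/HeJ, -0.39 against BALB/cJ, -0.57 against C57BLKS/J and -0.39 against C57L/J, and Gabra3 became -0.0073 against C57L/J. When mice were left out, TyJ minus RwwJ ran from -0.0658 to 0.0024 (Gabrg1), -0.0149 to 0.0682 (Gabra5) and -0.0409 to 0.0177 (Gabrb1). C57BL/6J minus A/J ran from -0.0733 to 0.26 (Gabrg1) and -0.19 to 0.0132 (Gabrb1), minus BALB/cJ from -0.30 to 0.18 (Gabrg1) and -0.20 to 0.0538 (Gabra3), minus C3H/HeJ from -0.0618 to 0.30 (Gabrb1), and minus C57BLKS/J from -0.12 to 0.18 (Gabra5) and -0.0031 to 0.19 (Gabrb1). The cause was not tested.

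Counts over all genes moved in both directions: of 10617 gene rows called among strains 6413 were called without replicate 2, and of 8677 gene-name sums 5042, while 11813 gene rows were called without OB-422 and OB-547. Within the CXB strains 2531 gene rows were called, 1633 without OB-422 and 4159 without OB-547. No paired analysis was possible because the labels give the mice no replicate numbers that are shared between strains. The unknown depth limits what can be said of transcripts listed at 0.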
